A study of Mus musculus with 6 samples.

Results

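Tip cell marker genes were followed in brain endothelial cells of mice with 1 or 2 floxed alleles of Rbpj and an endothelial Cre. The set holds 10 genes, taken by symbol from the 55450 gene rows of the count table: Esm1, Nid2, Plaur, Mcam, Chst1, Fscn1, Marcksl1, Trp53i11, Tnfaip8l1 and Sox11. They are known markers of the sprouting front outside the VEGF, angiopoietin and apelin families. Each symbol matched 1 row, and all 10 genes passed the filter on low counts.

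A growing vessel is led by a tip cell, which extends filopodia, loosens and lays down matrix and follows VEGF, while stalk cells behind it form the tube. Notch signalling between neighbouring cells limits how many become tip cells, and activated Notch receptors reach their target genes by binding Rbpj on DNA. The markers fall into several roles: secreted and matrix proteins (Esm1, Nid2), surface proteins (Plaur, Mcam), an enzyme of sulphated glycans (Chst1), actin and membrane proteins (Fscn1, Marcksl1), and regulators inside the cell (Trp53i11, Tnfaip8l1, Sox11).

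The 6 poly(A) RNA-seq libraries came from CD31-selected brain cells of mice aged postnatal day 7 on a mixed FVB/N and C57BL/6 background, both sexes. All mice carried Cdh5(PAC)-CreERT2, a Cre recombinase expressed from the endothelial Cdh5 promoter and activated by tamoxifen, and all were given tamoxifen (100 µg each time) at postnatal days 1 and 2. The control group (Rbpjflox/WT, 3 libraries) thus had 1 floxed allele and the mutant group (Rbpjflox/flox, 3 libraries) had 2. Deletion was driven in endothelial cells as a class, not in tip cells alone. A time field of the labels reads day 0 in place of day 7. RNA was pooled over mice: the labels' protocol speaks of more than 20 biological replicates, and the series' design text of 13 to 15 samples per cohort from more than 3 litters. Nothing says that libraries of the same group stem from different mice, so p-values reflect only how much these libraries vary, and that variation may be technical.

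Total counts ran from 75744913 to 82092461 per library, with about 4 counts to a read pair, and mutant library 3 stood apart on the second principal component (-55.6, against 26.2 and 31.2 for the other mutant libraries). The endothelial label was checked on 10 markers, whose summed level was 10120 to 10490 CPM (counts scaled to library size, with TMM factors) in control libraries and 10290 to 10960 CPM in mutant ones. Rbpj was at 54.3, 54.3 and 53.8 CPM in the controls and at 47.9, 46.8 and 45.2 CPM in the mutants, lower in each mutant library (log2 fold change -0.21 ± 0.042 SE, adjusted p = 0.0129, edgeR). Its gene-level count takes in exons outside the floxed part and is a weak check of the deletion.

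The start regions of 4 of the genes are shown because Rbpj and its cofactors act on DNA near the genes they control. They are the 250 bases before the RefSeq start site (GRCm38.p6), and all 4 genes lie on the plus strand. Esm1 (chr13:113209409-113209658) is the classical tip cell marker, Chst1 (chr2:92600867-92601116) and Trp53i11 (chr2:93187298-93187547) had the highest fold changes of the set, and Tnfaip8l1 (chr17:56162241-56162490) holds the only motif match found. Capitals mark that match.
Esm1: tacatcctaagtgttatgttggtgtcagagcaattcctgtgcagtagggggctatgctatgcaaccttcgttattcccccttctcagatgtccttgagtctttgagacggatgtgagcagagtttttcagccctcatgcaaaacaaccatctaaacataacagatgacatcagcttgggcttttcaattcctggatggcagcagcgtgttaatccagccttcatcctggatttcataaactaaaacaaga
Chst1: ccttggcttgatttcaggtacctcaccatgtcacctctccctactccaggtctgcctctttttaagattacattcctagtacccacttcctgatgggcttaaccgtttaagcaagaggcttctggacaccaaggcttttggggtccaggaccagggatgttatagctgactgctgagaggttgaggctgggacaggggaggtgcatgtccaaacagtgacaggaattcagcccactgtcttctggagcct
Trp53i11: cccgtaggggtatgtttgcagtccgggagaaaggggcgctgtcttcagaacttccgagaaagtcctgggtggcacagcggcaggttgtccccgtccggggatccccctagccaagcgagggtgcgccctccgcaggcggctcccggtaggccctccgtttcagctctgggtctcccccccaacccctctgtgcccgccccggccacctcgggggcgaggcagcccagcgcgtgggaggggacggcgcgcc
Tnfaip8l1: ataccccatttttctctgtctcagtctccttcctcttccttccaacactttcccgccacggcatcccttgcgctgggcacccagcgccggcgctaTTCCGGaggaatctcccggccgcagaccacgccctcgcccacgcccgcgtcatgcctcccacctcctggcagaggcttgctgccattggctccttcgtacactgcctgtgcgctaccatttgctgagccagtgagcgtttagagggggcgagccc

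Both strands were searched for TGGGAA, the core of the Rbpj motif, and for CCGGAA, the core of the motif of ETS factors, which are active in endothelium. The table gave a window for 9 of the 10 genes. None of the 9 windows held TGGGAA, which stood in 21.6% of the 32851 windows of the same length in the table. CCGGAA stood in 1 of 9, on the minus strand from 155 to 150 bases before the start site of Tnfaip8l1, and in 12% of all windows. The windows differed in base composition: G and C made up 44% of the Esm1 window and 51.6% of the Chst1 window, against 71.2% for Trp53i11 and 73.6% for Mcam, with a median of 60.4% over the 9 genes and 52.4% over all windows. The RefSeq start of Chst1 lies 1410 bases inside the GENCODE gene, so the window shown is not that of the outermost annotated start.

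Of the 10 tip cell markers, 9 were higher in the mutant libraries, none was lower, and Sox11 was not called. A gene was called when its adjusted p (edgeR quasi-likelihood test, Benjamini-Hochberg over 19549 genes) was under 0.05; by that rule 7.56% of all tested genes were higher and 6.83% lower. Expression level bears on this share: of the 6249 genes with a mean of at least 30 CPM, 15% were higher. All 10 markers had such a mean over the 6 libraries, but Esm1 and Plaur, at 20.3 and 28.4 CPM in the controls, reached it only through the mutant libraries, so this share is no background independent of the change. The rise was at least 2-fold for 5 markers (Chst1, Trp53i11, Plaur, Esm1 and Mcam), as it was for 1.29% of all genes, and between 1.5-fold and 2-fold for Nid2, Fscn1 and Tnfaip8l1. The median log2 fold change of the 10 was 1.01, against -0.01 over all genes tested. Every mutant library lay above every control library for all 10 genes, and for 16.8% of all genes. The 10 markers were chosen with earlier results of these data known, so these counts are descriptive and no independent result. Summed over the set, control libraries held 2078 to 2126 CPM and mutant libraries 4014 to 4170 CPM. In RNA from whole preparations, a larger share of tip cells and more RNA of these genes per cell cannot be told apart.

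**Figure D1:**
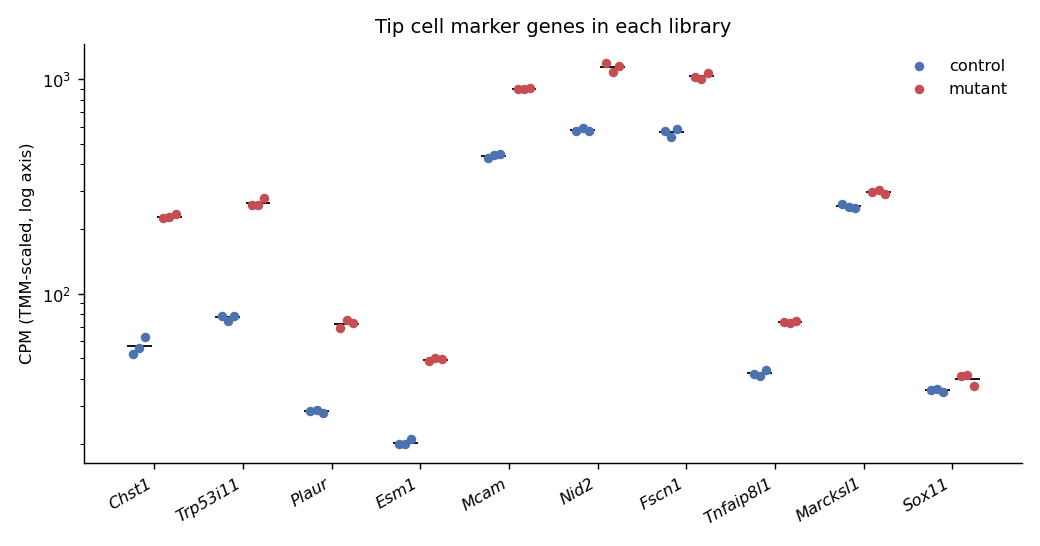
Expression of the 10 tip cell marker genes in each library, in CPM on a log axis, with genes ordered by fold change. Points are the 3 control and 3 mutant libraries and bars are group means; the mutant points lie above the control points for every gene, with the narrowest gap at Sox11 (1.40 CPM).

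Esm1 (ENSMUSG00000042379, chromosome 13 from 113209659 to 113218098, plus strand, GRCm38) encodes endocan, a secreted proteoglycan of endothelial cells. The control libraries held 19.9, 19.9 and 20.9 CPM, and the mutant ones 48.6, 50.0 and 49.4 CPM. The mutant values lay close together and well above the control values. Its log2 fold change was 1.28 ± 0.049 (SE, adjusted p = 8.08e-06 by edgeR), a 2.44-fold rise with a 95% interval of 2.25 to 2.64. Esm1 was the thinnest-covered marker, with about 394 read pairs in its lowest library.

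Nid2 (ENSMUSG00000021806, chromosome 14 from 19751265 to 19811787, plus strand) encodes nidogen-2, which links laminin and type IV collagen in the basement membrane. Its level was 570, 593 and 573 CPM in the controls and 1188, 1080 and 1156 CPM in the mutants. The lowest mutant library was still 487 CPM above the highest control library. The log2 fold change was 0.98 ± 0.042 (SE, adjusted p = 1.45e-05 by edgeR). Exons of Nid2 overlap those of Rtraf on the other strand, and no source used here says whether reads were counted by strand. Rtraf had 110 ± 8.25 and 117 ± 4.86 CPM (SD, n = 3), so its own level was a small part of that of Nid2 and was not called as changed.

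Plaur (ENSMUSG00000046223, chromosome 7 from 24462484 to 24475968, plus strand) encodes the receptor for urokinase, which focuses plasmin formation at the cell surface. Control libraries held 28.5, 28.7 and 27.9 CPM and mutant libraries 68.9, 75.1 and 73.4 CPM. The groups did not overlap, and the mutant libraries were the more spread. Plaur rose by 1.35 ± 0.048 on the log2 scale (adjusted p = 6.92e-06, edgeR), or 2.55-fold.

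Mcam (ENSMUSG00000032135, chromosome 9 from 44134469 to 44142727, plus strand) encodes CD146, an adhesion molecule of endothelial and mural cells that binds laminin of the endothelial basement membrane. The control values were 428, 441 and 450 CPM and the mutant values 897, 897 and 913 CPM. The libraries of each group were close together, with a coefficient of variation of 2.55% in control and 1.03% in mutant. Its log2 fold change was 1.04 ± 0.031 (SE, adjusted p = 3.47e-06, edgeR). The antisense gene Gm10687, which overlaps its exons, had only 6.79 and 8.74 CPM.

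Chst1 (ENSMUSG00000027221, chromosome 2 from 92599707 to 92615250, plus strand) encodes a sulphotransferase that acts on galactose of keratan sulphate and related glycans. Control libraries had 52.3, 56.0 and 62.8 CPM, mutant libraries 225, 227 and 234 CPM. The control libraries were the more uneven (coefficient of variation 9.41%, against 2.28%), but their highest value was 162 CPM below the lowest mutant value. This was the highest fold change of the set, 4.00-fold with a 95% interval of 3.59 to 4.47 (log2 fold change 2.00 ± 0.068 SE, adjusted p = 5.15e-06, edgeR).

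Fscn1 (ENSMUSG00000029581, chromosome 5 from 142960343 to 142973185, plus strand) encodes fascin, which bundles actin filaments in filopodia. Control libraries had 573, 535 and 584 CPM and mutant libraries 1021, 1006 and 1062 CPM. The separation of the groups, 422 CPM, was many times the spread inside either. The log2 fold change was 0.87 ± 0.042 (SE, adjusted p = 2.26e-05, edgeR), or 1.83-fold.

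Marcksl1 (ENSMUSG00000047945, chromosome 4 from 129513581 to 129515985, plus strand) encodes a membrane-bound protein that binds actin. Its level was 263, 252 and 250 CPM in the controls and 299, 305 and 291 CPM in the mutants. The groups did not overlap, but the rise was small, 1.17-fold with a 95% interval of 1.11 to 1.24 (log2 fold change 0.23 ± 0.035 SE, adjusted p = 0.00437, edgeR). The interval for Fscn1, 1.71 to 1.95, lay wholly above that for Marcksl1; the difference between these actin-binding genes was not itself tested.

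Trp53i11 (ENSMUSG00000068735, chromosome 2 from 93187548 to 93201759, plus strand) was named as a gene induced by p53. Control libraries held 78.7, 74.8 and 78.9 CPM and mutant libraries 258, 260 and 279 CPM. No mutant library came within 179 CPM of a control library. The rise was 3.43-fold with a 95% interval of 3.19 to 3.68 (adjusted p = 1.65e-06, edgeR). The gene for p53 itself, Trp53, had 159 and 170 CPM and was not called (adjusted p = 0.178, edgeR).

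Tnfaip8l1 (ENSMUSG00000044469, chromosome 17 from 56162477 to 56173955, plus strand) belongs to the TNFAIP8 family of lipid-binding regulators of cell death and immunity. The controls held 42.1, 41.4 and 43.9 CPM and the mutants 73.8, 72.8 and 74.3 CPM. The mutant libraries varied by 1.08% (coefficient of variation) and the control libraries by 2.99%. The rise was 1.73-fold (log2 fold change 0.79 ± 0.041 SE, adjusted p = 2.80e-05, edgeR). The overlapping antisense gene Gm44397 was at 0 in all 6 libraries.

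Sox11 (ENSMUSG00000063632, chromosome 12 from 27334264 to 27342574, minus strand) encodes a transcription factor of the SoxC group, better known from neural progenitors. Its values were 35.6, 35.9 and 34.8 CPM in the controls and 41.5, 41.8 and 37.3 CPM in the mutants. Mutant library 3 lay nearer to the control libraries than to the other mutant libraries. On the log2 scale the change was 0.18 ± 0.059 (SE, adjusted p = 0.0853, edgeR), with a 95% interval of 1.03-fold to 1.25-fold. Without mutant library 3 it was 0.24 and passed the threshold (adjusted p = 0.0272, edgeR), and with any other single library left out the adjusted p lay between 0.152 and 0.224.

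**Figure D2:**
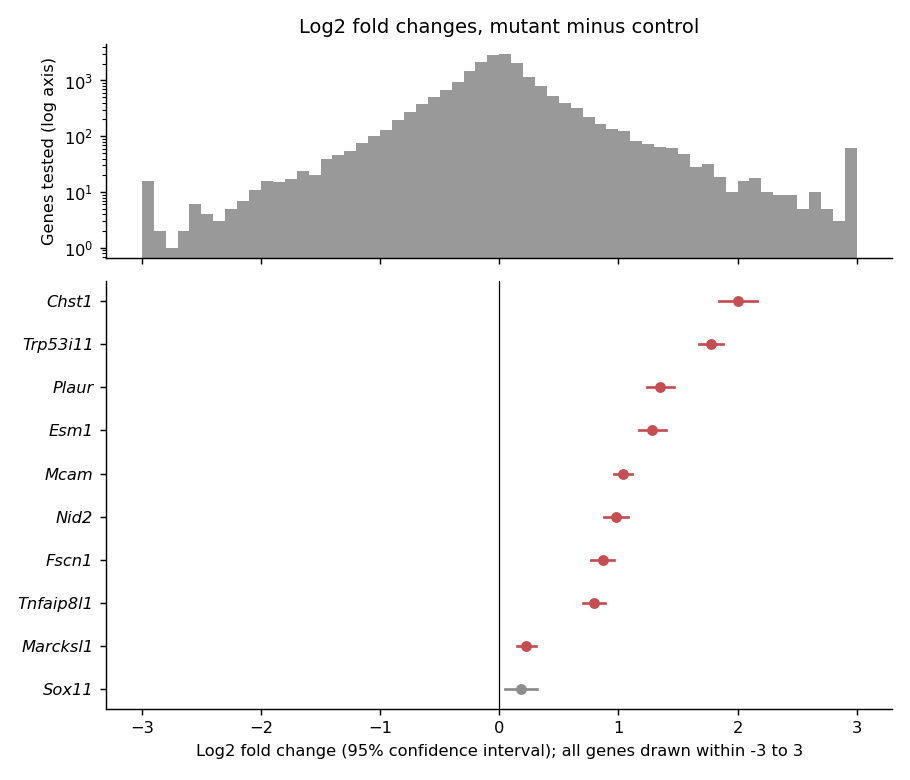
Log2 fold changes (mutant minus control) of all 19549 genes tested, as a histogram with a log count axis and values beyond 3 drawn at the edge, above those of the 10 markers with 95% confidence intervals. Red marks genes called higher and grey the 1 gene not called; the markers run from 0.18 (Sox11) to 2.00 (Chst1).

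Levels were compared between genes per kilobase of annotated exon. On that scale Fscn1 was the most abundant marker in control libraries (187 CPM per kb), followed by Marcksl1 (159), Mcam (131) and Nid2 (112), all above 97% of the genes tested. Chst1 and Trp53i11 stood at 21.28 and 20.99 CPM per kb, a difference smaller than the 9.41% spread of Chst1 between control libraries. Plaur (10.8), Esm1 (9.66), Tnfaip8l1 (6.79) and Sox11 (4.26) followed. In mutant libraries Mcam (269) and Nid2 (221) were above Marcksl1 (186), and Chst1 and Trp53i11 reached 85.25 and 71.99 CPM per kb. Large and small changes were thus found both among abundant markers, from Mcam to Marcksl1, and among less abundant ones, from Chst1 to Sox11.

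Relatives and binding partners of the markers moved less evenly. Of a list of 22 such genes, 20 were tested, 7 were higher, 3 lower and 10 not called, with a median log2 fold change of -0.05. Over all genes tested, 7.56% were higher and 6.83% lower. The list was chosen with earlier results of these data known, so its counts are descriptive. In the urokinase system, in which Plaur is the receptor, urokinase itself (Plau) rose from 9.56 ± 0.248 to 13.9 ± 1.08 CPM (SD, n = 3; adjusted p = 0.00536, edgeR). The tissue-type activator Plat fell by 0.18 and the inhibitor Serpine2 by 0.51 on the log2 scale. Vtn, the gene for vitronectin, which Plaur binds and pericytes make, fell by 0.18.

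Among matrix partners, Lama4, a laminin chain of the kind Mcam binds, rose from 640 ± 6.81 to 1196 ± 61.5 CPM (log2 fold change 0.90 ± 0.041), and Nid1, the relative of Nid2, from 1519 ± 27.4 to 2072 ± 113 CPM (0.45 ± 0.043). Lama4 and Nid1 also stand in the list of other sprouting genes below. The sulphotransferases Chst2 (0.37 ± 0.044) and Chst7 (0.56 ± 0.070) rose as well, as did Marcks (0.16 ± 0.037, adjusted p = 0.0277 by edgeR). Marcks lost its call in 4 of the fits with 1 library left out, those lacking control library 2, control library 3, mutant library 1 and mutant library 2 (adjusted p from 0.06485 to 0.0876, edgeR), and Plat in those lacking control library 2 and mutant library 2 (0.0603 and 0.0715).

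For 5 of the markers, the level was also set against that of the most abundant relative in the same library, as a log2 ratio of CPM. No pair was formed for Esm1, Plaur, Mcam and Trp53i11. Chst1 to Chst2 went from -0.54 ± 0.12 to 1.098 ± 0.040 (SD, n = 3), so that Chst1 had the lower count of the pair in every control library and the higher one in every mutant library. Tnfaip8l1 to Tnfaip8 went from 0.91 ± 0.19 to 1.79 ± 0.12, and Nid2 to Nid1 from -1.39 ± 0.0096 to -0.86 ± 0.089. The ratio of Sox11 to Sox4 was -1.70 ± 0.036 and -1.50 ± 0.13, with mutant library 3 (-1.65) close to the nearest control library (-1.66). For Marcksl1 to Marcks it was -0.21 ± 0.017 and -0.14 ± 0.024. The groups did not overlap for any of the 5 pairs; the exact (two-sided) permutation test gave p = 0.1 for each, also after adjustment over the 5 pairs, which is the smallest that 3 libraries against 3 allow. For fascin, the relative with the most counts, Fscn2, had under 0.3 CPM in each library and no ratio was formed.

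**Figure D3:**
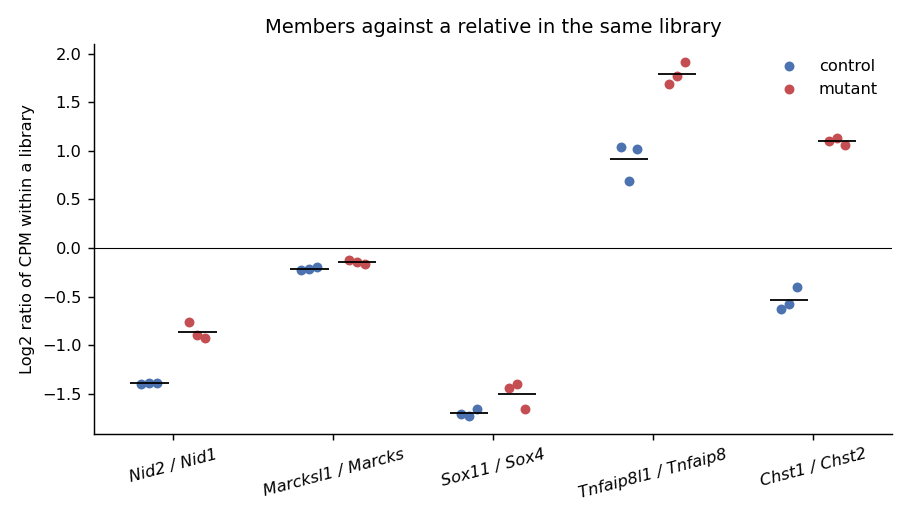
Log2 ratio of CPM of a marker to its most abundant relative within each library, for 5 pairs; points are libraries and bars group means. Chst1 to Chst2 changes sign between the groups (-0.54 to 1.098), while Marcksl1 to Marcks moves from -0.21 to -0.14.

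A list of 30 other tip cell and sprouting genes, none of them among the 10 markers, gave 22 higher, 3 lower and 5 not called, with a median log2 fold change of 0.36. Over all genes tested, 7.56% were higher and 6.83% lower, and 15% were higher among genes with a mean of at least 30 CPM. This list too was chosen with earlier results of these data known, so its counts are no independent result. The largest rises were in the potassium channel subunit Kcne3 (1.51 ± 0.32 to 29.5 ± 2.89 CPM), the vasodilator peptide gene Adm (log2 fold change 2.44 ± 0.040), the VEGF-family ligand gene Pgf (1.86 ± 0.081), the protocadherin gene Pcdh17 (1.84 ± 0.046), the Tie2 ligand gene Angpt2 (1.67 ± 0.043) and Apln (1.60 ± 0.044). Chst1 and Trp53i11 thus lay in the range of these ligands and surface proteins. The 3 lower genes were Efnb2, an ephrin of arterial endothelium (-0.77 ± 0.046), Igfbp3, a binding protein of insulin-like growth factors (-0.64 ± 0.050), and Unc5b, a netrin receptor of tip cells (-0.47 ± 0.038). The 5 not called were Kdr, Nrp2, Robo4, Ramp3 and Pfkfb3; the last had 39.9, 15.6 and 39.5 CPM in the controls and 78.6, 72.03 and 79.1 CPM in the mutants, and it was called without control library 2 (adjusted p = 0.0004004, edgeR) and, on all 6 libraries, by DESeq2 (adjusted p = 0.0151). So was Kdr with library size only or without the low-count filter (0.0445 and 0.0444). Markers of the sprouting front therefore did not all move one way: Unc5b was lower in the same libraries in which 9 of the 10 genes described here were higher.

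**Figure D4:**
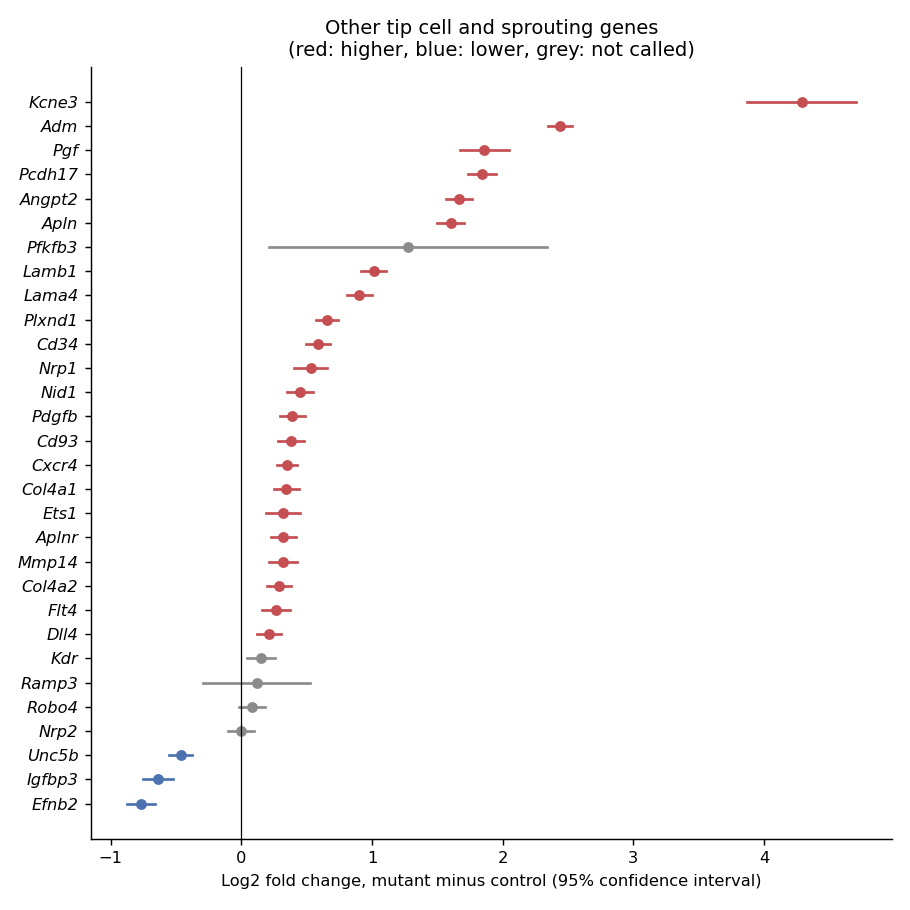
Log2 fold changes (mutant minus control) with 95% confidence intervals of 30 other tip cell and sprouting genes. Red marks the 22 genes called higher, blue the 3 called lower and grey the 5 not called; values run from -0.77 (Efnb2) to 4.29 (Kcne3).

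Several of the 10 markers are made by other cells of the brain as well, so the marker lists of these cells are given beside them. For the calls in these lists and those of the next paragraph, the background was 7.56% of all genes tested higher and 6.83% lower. For Mcam and Nid2, which mural cells also make, the 12 pericyte and smooth muscle markers summed to 4259 to 4381 CPM in the controls and 4322 to 4428 CPM in the mutants, ranges that overlap. The members went both ways: the pericyte genes Abcc9 (log2 fold change 0.52), Kcnj8 (0.49) and Cspg4 (0.19) rose, and 6 fell. Among the 6 were the smooth muscle genes Acta2 (-1.32), Tagln (-1.17), Myh11 (-1.02) and Cnn1 (-1.84). Vtn (-0.18), which pericytes make, and Notch3 (-0.19) fell as well. Pdgfrb, Atp13a5 and Rgs5 were not called, so the pericyte genes of the list did not move as 1 group. Rgs5 alone gave 2043 of the mean of 4311 CPM in the controls. The part of mural RNA in the Mcam and Nid2 values was not tested. For Nid2 and fibroblasts, 2 of 8 markers were lower and none higher (839 to 950 CPM against 555 to 733 CPM). For Plaur and microglia or macrophages, 6 of 10 markers were lower and none higher (1473 to 1506 CPM against 1165 to 1217 CPM). For Sox11, Marcksl1 and Fscn1, which neurons and their progenitors make, the 10 neuronal markers summed to 179 to 196 CPM in the controls and 194 to 235 CPM in the mutants, with 1 lower (Stmn2), none higher and a median log2 fold change of 0.33. In 5 of the 10 every mutant library was above every control library, against 16.8% of all genes tested. In 2 every mutant library was below, against 3385 of the 19549 genes tested. Gad2, 1 of the 5, had at most 0.3346 CPM in any library and about 2 read pairs in its lowest. Dcx, a marker of immature neurons, had 23.4, 18.7 and 43.8 CPM in the controls and 62.1, 53.7 and 48.3 CPM in the mutants and was not called (adjusted p = 0.192, edgeR). Mutant library 3 had the lowest value of the mutant group in the neuronal sum and also in Sox11 and Marcksl1, but the highest in Fscn1; the part of neuronal RNA in these values was not tested.

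Astrocyte markers (474 to 528 CPM against 257 to 385 CPM) and erythroid markers (5266 to 5519 CPM against 3591 to 3859 CPM) were lower in sum in the mutant libraries, with 1 of 7 and 4 of 6 called lower, and oligodendrocyte lineage markers overlapped (41.8 to 45.3 CPM against 40.3 to 51.8 CPM; 2 of 7 higher, 1 lower). No marker of these lists was at 0 throughout a group. In the astrocyte list, Gja1 alone gave 269 of the mean of 498 CPM in the controls. Gja1 had 201, 79.2 and 198 CPM in the mutants and was not called (adjusted p = 0.326, edgeR). Of the 10 endothelial markers, 4 were higher, 2 lower and 4 not called, with a median log2 fold change of 0.05. The 4 were Emcn (log2 fold change 0.47), Egfl7 (0.43), Pecam1 (0.41) and Tie1 (0.21), and the 2 were Tek (-0.62) and Cdh5 (-0.15). Pecam1 encodes CD31, on which the cells were selected, and its RNA was 1.33-fold higher in the mutants. Whether the selection differed between the groups was not tested. The summed endothelial markers averaged 10320 CPM in the controls and 10540 CPM in the mutants, where Chst1 rose 4.00-fold and Mcam 2.05-fold. Cldn5 alone gave 3064 CPM of the control sum, and opposite moves cancel in it, so the sum is a coarse measure.

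**Figure D5:**
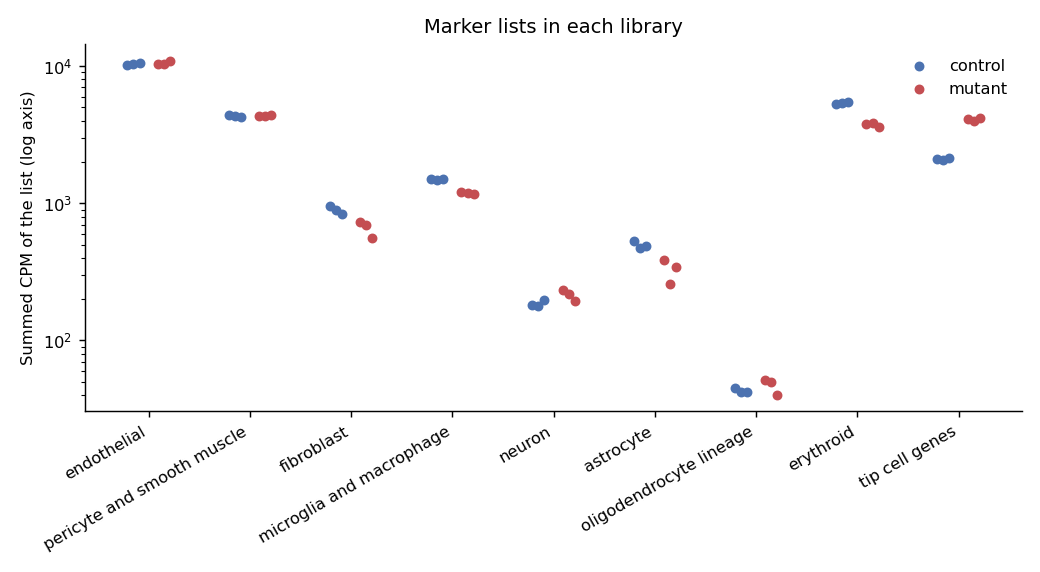
Summed CPM (log axis) of the marker lists of endothelial and other cells and, at the right, of the 10 tip cell genes, with 1 point per library. Endothelial and mural sums overlap between the groups, fibroblast, microglial, astrocyte and erythroid sums are lower in mutant libraries, and the tip cell sum goes from 2078 to 2126 CPM to 4014 to 4170 CPM.

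In position, 2 of the markers are near each other: Chst1 and Trp53i11, the markers with the highest fold changes, lie 572 kb apart on chromosome 2. Of the 7 genes annotated between them, only Prdm11 and Syt13 had enough counts to be tested. Prdm11 was lower (24.5 to 20.5 CPM, adjusted p = 0.0286 by edgeR) and Syt13 was not called (2.00 and 1.72 CPM). Tspan18, directly after Trp53i11 on the other strand, had 251 and 268 CPM and was not called (adjusted p = 0.160, edgeR). None of the tested genes between or directly beside Chst1 and Trp53i11 was thus called higher. Taking the nearest tested protein-coding gene on each side of every marker, a rule added after the values were known, 6 of 20 neighbours were higher (Cadm4, Cbl, Gng2, Actb, Sema6b and Mydgf) and 1 lower. Among all tested protein-coding genes 9.02% were higher, and among all tested genes with a mean of at least 30 CPM 15%. The largest of these 6 rises was that of Gng2 beside Nid2, 0.60 ± 0.064 on the log2 scale.

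The genes most like the set in pattern, by Pearson correlation over the 6 libraries with the mean standardised level of the 10 markers, were Ubtd1, Mest, Calm2, Apold1 and the pseudogene Gm7336, with r from 0.9992 to 0.9997. With 2 groups of 3 libraries such a correlation follows the difference between the groups, and 808 of 11728 genes with at least 5 CPM had r above 0.95. Their sizes of change were not alike: Mest rose from 179 ± 5.06 to 484 ± 14.1 CPM and Calm2 from 320 ± 1.304 to 372 ± 1.95 CPM.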

How the data were processed

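Estimated counts per gene, deposited by the authors as whole numbers without normalization, were used as they stand. Per the submitters' processing notes, the build was GRCm39 and the tools were StringTie 1.3.4, HISAT2, FastQC 0.10.1, edgeR and cutadapt 1.10, with no roles or settings. All 55450 identifiers match GENCODE M21 (GRCm38), from which symbols, exon lengths and coordinates were taken. Low counts step by about 4 (1118 to 1190 genes per library had a count of 4, 171 to 189 a count of 5), so read pairs, not counts, set the precision. The deposited quality table gives the count of valid reads (50226902 to 53986268) and the percent of valid reads (96.51 to 96.84) per library, per the file headers.

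Genes were filtered with filterByExpr, scaled by TMM and tested with the robust quasi-likelihood F test of edgeR 4.0.16 (R 4.3.3), group as the only term, on all 6 libraries; the SE is the log2 fold change over the square root of F. The code was tested on simulated data. Counts of library pairs of 1 group differed by 1.81 to 2.6 times the sampling expectation (median chi-square on read pairs), so no library was merged. Errors on CPM values and on log2 ratios of 2 genes are SD of 3 libraries. Those on log2 fold changes (mutant minus control) are SE. Alternatives were RLE factors, library size only, 2 other filters, DESeq2 1.42.0, limma-voom (limma 3.58.1), counts divided by 4, a replicate block and each library left out. Named were all 10 markers, of the other sprouting genes the 6 largest rises and all falls, of the relatives and partners every called gene but 1, which is not reported here, and the most abundant relatives, and the 5 genes most like in pattern (log2 of CPM plus 0.5). Further genes named beside these (uncalled sprouting genes, mural and endothelial markers, Dcx, Gad2, Gja1, antisense and neighbouring genes, Fscn2, Trp53, Stmn2) were chosen after their values were seen. The markers and lists were chosen with earlier results of these data known. Promoter windows are from RefSeq (GRCm38.p6).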

Additional observations from a re-analysis of the deposited data

How the results depend on the processing

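The 9 markers called higher were called in every alternative run, and none of the 10 changed sign. Their log2 fold changes moved little: Chst1 between 1.95 and 2.08, Trp53i11 between 1.75 and 1.80, Marcksl1 between 0.21 and 0.26, with an adjusted p of at most 0.0216 for the last. Sox11 ranged from 0.16 to 0.24 with 1 library left out and passed the threshold only without mutant library 3 (0.24). Over all genes, the count of lower genes fell from 1335 to between 807 and 1125 with 1 library left out. Leaving out control library 1 gave 807, control library 2 gave 861 and mutant library 2 gave 865. The count of higher genes fell as well in these runs, from 1477 to between 1100 and 1270. Same-numbered libraries did not deviate together (correlations of -0.0233, 0.00969 and 0.0233), which cannot show whether they were prepared as pairs. With the replicate block, 1106 genes were higher and 953 lower, and the same 9 markers were called. Under this block Marcks lost its call (adjusted p = 0.0744, edgeR), and Sox11 stood at 0.18 (adjusted p = 0.126, edgeR). The causes of these shifts were not tested. The median over all genes moved by less than 0.1 on the log2 scale between scalings (-0.02 with library size only, -0.01 with TMM). Depth limits Esm1 most, at about 394 read pairs in its lowest library.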
